A study of Mus musculus with 4 samples.

Results

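The receptors that carry Wnt signals outside the beta-catenin pathway and the core genes of planar cell polarity were compared between rostral and presumptive caudal cells. The genes were Ror1, Ror2, Ryk, Ptk7, Vangl1, Vangl2, Celsr1, Celsr2, Prickle1 and Prickle2, chosen by name, and every probe set annotated to 1 of them alone was taken. This gave 21 probe sets for 10 genes, of 45101 probe sets and 18194 named genes on the array. The cells came from a Rax::eGFP mouse embryonic stem cell (ESC) line, in which GFP reports Rax, a homeobox gene of the eye field and rostral forebrain. The ESCs were grown as floating aggregates in a medium free of serum and growth factors (SFEBq), and at day 4.5 the cells of many pooled aggregates were sorted by FACS into Rax::GFP+ cells (rostral) and Rax::GFP- cells (presumptive caudal). Both groups therefore share the line, the medium and the day. The GFP- group is defined only by the lack of the reporter, and the data come from 1 ESC line. RNA of each group was hybridised to 2 Affymetrix arrays, called biological duplicates in the study's methods.

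In non-canonical Wnt signaling, ligands such as Wnt5a bind receptors of the Ror family, Ryk or Ptk7, often together with a Frizzled receptor, and act on the cytoskeleton and on cell movement. In planar cell polarity, Vangl and Prickle proteins gather on one side of a cell and Frizzled and Dishevelled proteins on the opposite side, while the Celsr cadherins join the sides of neighbouring cells. The pathway is known in the mouse embryo for the narrowing and lengthening of the neural plate and for neural tube closure.

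Ror1 and Prickle1 were higher in GFP- cells, Prickle2 was higher by a smaller amount, and the other genes did not pass the test in either direction. Of the 21 probe sets, 4 were called higher in GFP- cells (19.0% of them, where 3.64% of all probe sets on the array were called higher) and 0 were called lower (3.82% of all probe sets). A call is an adjusted p under 0.05 from limma, with Benjamini-Hochberg adjustment over all probe sets. The 4 calls lay in 3 genes, and probe sets of 1 gene are not independent. With 1 value per gene, taken from its most expressed probe set, 3 of 10 genes were called higher (5.4% of all genes) and 0 lower (2.63% of all genes). At an unadjusted p under 0.05, limma had 7 of the 21 higher and 2 lower (26.7% of all probe sets in either direction). The median log2 difference of the 21 probe sets was 0.16, beside 0.03 over all probe sets, and the range ran from -0.98 to 1.66. All differences are GFP- minus GFP+ on the log2 scale of the deposited RMA values. The groups were apart, with no overlap, at 15 of the 21 probe sets and at 57.3% of all those on the array, so that this count was not read further. Precision is limited by the number of arrays: for a single value, the two-sided exact permutation test could not go below 1 in 3.

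**Figure D1:**
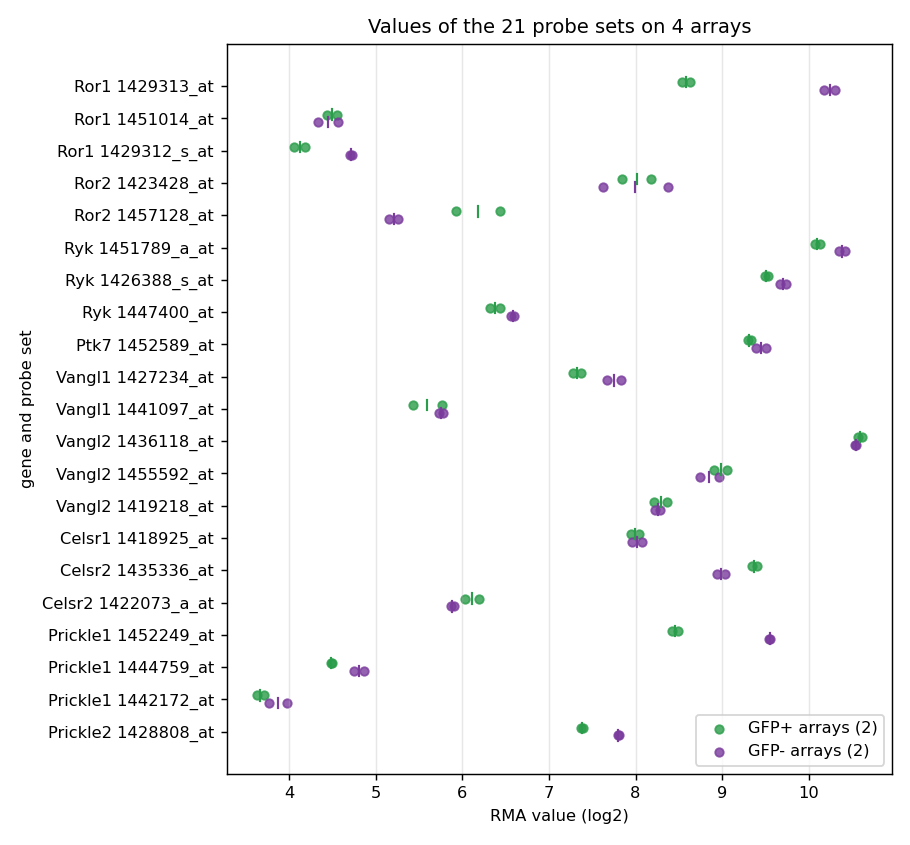
RMA value (log2, x axis) of the 21 probe sets of the 10 genes (y axis). Circles are single arrays, 2 for GFP+ (green) and 2 for GFP- cells (purple), and short bars are group means. The groups stand farthest apart at Ror1 1429313_at (means 8.58 and 10.24) and at Prickle1 1452249_at (8.46 and 9.55), and overlap at Vangl2 1455592_at and at Celsr1.

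Markers of several other cell types moved with the same contrast. Of 7 pluripotency markers, 5 were called higher in GFP- cells and 0 lower, and their summed linear RMA values were 1400 to 1643 on the GFP+ arrays and 9480 to 9941 on the GFP- arrays. Of 8 endoderm markers, 6 were called higher and 0 lower, with sums of 732 to 980 and 3594 to 4252. Of 7 neural ectoderm markers, 5 were called lower in GFP- cells and 0 higher (19779 to 19820 against 13033 to 13713), and of 5 rostral markers, Rax among them, 4 were called lower (16799 to 18936 against 8429 to 10168). Of 5 caudal markers, Irx3 and Irx5 were called higher (160 to 207 against 715 to 1188). Of 5 measured markers of mesoderm and primitive streak, Eomes was called higher (251 to 259 against 508 to 646). Eomes itself differed by 2.48, and the 4 that were not called differed by -0.08 to 0.64. Snai2, of 4 neural crest markers, and Tubb3, of 4 neuronal markers, were called lower. RMA gives no value of 0, so absence of a marker cannot be read from it. The part of these cells in the differences below was not tested, and a smaller share of expressing cells cannot be told apart from less RNA per cell.

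Ror1 and Ror2 encode the Ror receptor tyrosine kinases, which bind Wnt5a. The stretch before the start of transcription is shown for these close relatives because only Ror1 was called on these arrays, a contrast between the genes that was not tested itself. The sequences are the 250 bases before the RefSeq start of each gene, 5′ to 3′ on the gene's strand in build GRCm38.p6. Capitals mark matches on either strand to any of the motifs searched. These were the core of Tcf/Lef sites, spelled CTTTGA, and the GC box, spelled GGGCGG. Also searched were the CCAAT box, the TATA box in the form TATAAA and the octamer, spelled ATGCAAAT.
Ror1, chr4:100095541-100095790, plus strand: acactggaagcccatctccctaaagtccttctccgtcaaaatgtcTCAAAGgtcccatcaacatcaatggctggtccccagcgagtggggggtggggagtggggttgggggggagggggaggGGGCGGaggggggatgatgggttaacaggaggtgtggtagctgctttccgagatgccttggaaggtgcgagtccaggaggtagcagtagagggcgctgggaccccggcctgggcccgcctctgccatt
Ror2, chr13:53286125-53286374, minus strand: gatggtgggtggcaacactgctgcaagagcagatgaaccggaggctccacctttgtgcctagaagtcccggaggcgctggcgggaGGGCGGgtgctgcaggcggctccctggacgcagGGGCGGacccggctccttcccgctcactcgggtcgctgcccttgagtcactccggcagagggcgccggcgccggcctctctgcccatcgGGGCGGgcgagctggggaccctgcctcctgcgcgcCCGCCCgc

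The Ror1 stretch held 1 match to CTTTGA, on the opposite strand, and 1 GC box, with 8 CpG dinucleotides. The Ror2 stretch held 4 GC boxes, 0 matches to CTTTGA and 24 CpG dinucleotides. Over 32851 mouse promoter stretches of the same length, 13.8% held CTTTGA, 32.7% a GC box, 33.8% a CCAAT box, 12.4% a TATA box and 1.6% the octamer, and the median was 6 CpG dinucleotides. RefSeq stretches were at hand for 8 of the 10 genes, 12 in all, and the entries for Vangl1 and Celsr1 were missing. CTTTGA was also present at 1 of the 4 starts of Prickle2, and at neither start of Prickle1. These letters are a description of the sequence, not of binding.

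Ror1 had the largest difference of the 10 genes. Its most expressed probe set, 1429313_at, had log2 values of 8.54 and 8.63 on the GFP+ arrays and 10.31 and 10.18 on the GFP- arrays. Both GFP- arrays were more than a whole log2 unit above both GFP+ arrays. The log2 difference was 1.66 (standard error 0.09, 95% interval 1.43 to 1.89, adjusted p = 0.00638 from limma), which is 3.16-fold. A second Ror1 probe set, 1429312_s_at, was at 4.05 and 4.19 in GFP+ cells and at 4.72 and 4.70 in GFP- cells, without overlap. Its difference was 0.59 (adjusted p = 0.0309 from limma), and the call was lost when GFP+ replicate 1 was left out (adjusted p = 0.102). Affymetrix gives the suffix _s_at to probe sets whose probes can match more than a single transcript. The third, 1451014_at, was at 4.44 and 4.55 against 4.56 and 4.33, so that the groups overlapped, with a difference of -0.05 (95% interval -0.34 to 0.25). The last 2 probe sets were below a log2 value of 5 on all arrays, the level that the filter on dim probe sets asks for.

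Ror2 was not called at either of its 2 probe sets, which did not behave alike. The more expressed one, 1423428_at, was at 8.18 and 7.84 in GFP+ cells and at 8.37 and 7.63 in GFP- cells. The GFP- arrays lay on both sides of the GFP+ arrays, and the difference of -0.01 had the widest interval of the 21 probe sets, from -0.76 to 0.73. The other, 1457128_at, was at 6.43 and 5.93 in GFP+ cells and at 5.15 and 5.26 in GFP- cells. Here both GFP- arrays were lower, with a difference of -0.98 (standard error 0.18, 95% interval -1.46 to -0.49), and the adjusted p of 0.0530 from limma did not pass. It passed under 5 of the 8 other settings that used all arrays, with adjusted p-values from 0.0197 to 0.135 over those settings, and without GFP+ replicate 2 (0.0226).

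By a measure of likeness of pattern, the genes nearest to Ror1 1429313_at over the 4 arrays, each centred on its mean, were Dsg2, Kdf1 and Grhl2. Dsg2, a desmosomal cadherin gene, stood at 7.74 and 7.83 on the GFP+ arrays and at 9.49 and 9.43 on the GFP- arrays, at a root mean square difference from Ror1 of 0.0228. Kdf1, a gene of epidermal differentiation, was at a root mean square difference of 0.0419. Grhl2, which encodes a grainyhead transcription factor, was at 0.0445. With 4 arrays in 2 groups, the measure mostly compares the size of the group difference, which was 1.68 for Dsg2, 1.66 for Kdf1 and 1.63 for Grhl2.

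Ryk and Ptk7 encode receptors with a kinase domain that lacks catalytic activity. The most expressed Ryk probe set, 1451789_a_at, was at 10.07 and 10.13 in GFP+ cells and at 10.35 and 10.42 in GFP- cells. At all 3 Ryk probe sets the groups were apart, as at 57.3% of all probe sets on the array, and the differences ran from 0.19 to 0.29. None of them passed (adjusted p = 0.0976, 0.193 and 0.205 from limma). The interval of the most expressed reached from 0.09 to 0.49. Those of the others included 0, from -0.003 to 0.39 for 1426388_s_at and from -0.01 to 0.42 for 1447400_at. Ptk7, known from mutants with open neural tubes, was measured by 1 probe set. It was at 9.30 and 9.33 in GFP+ cells and at 9.39 and 9.51 in GFP- cells. The difference was 0.13 (95% interval -0.08 to 0.34, adjusted p = 0.362 from limma), so that an increase of more than 0.34 lies outside its interval.

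**Figure D2:**
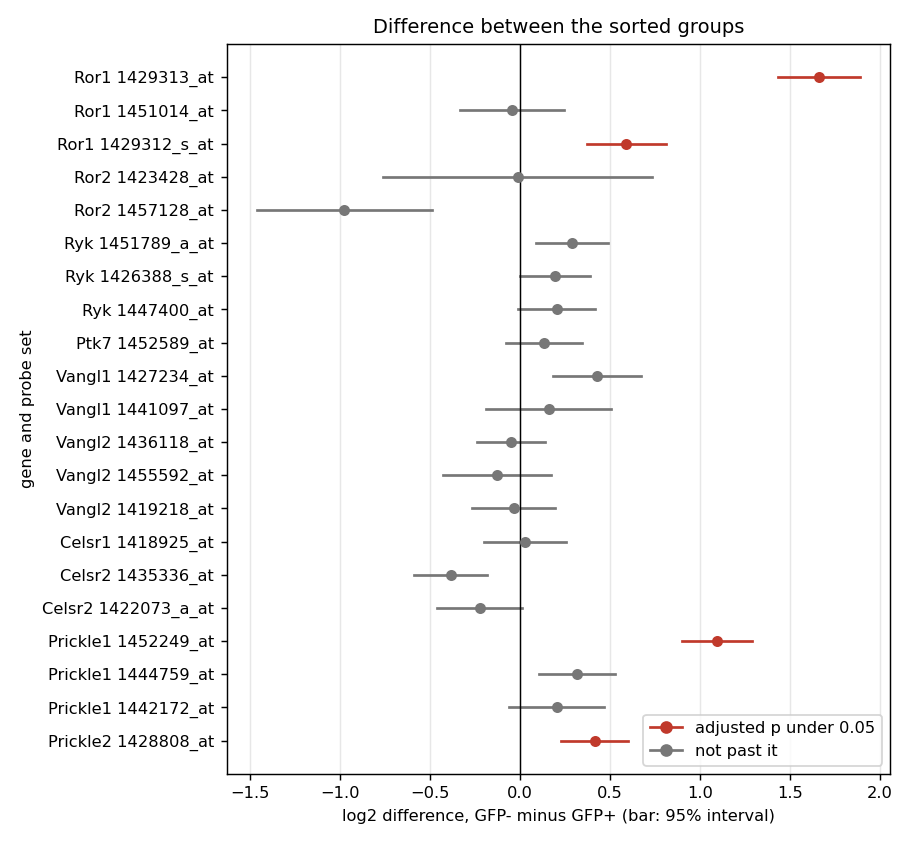
Each of the 21 probe sets (y axis) is drawn at its log2 difference, GFP- minus GFP+ (x axis), with bars for the 95% intervals from limma. Red marks an adjusted p under 0.05 and grey the rest, and the 4 red probe sets belong to Ror1 (1.66 and 0.59), Prickle1 (1.09) and Prickle2 (0.41).

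Both Prickle genes were called higher in GFP- cells, and neither Vangl gene was, a contrast between genes that was not tested. Prickle1, a cytoplasmic protein with LIM domains, was at 8.49 and 8.42 in GFP+ cells and at 9.55 and 9.55 in GFP- cells by its most expressed probe set, 1452249_at. The spread within each group was small beside the distance between them. The difference was 1.09 (standard error 0.07, 95% interval 0.90 to 1.29, adjusted p = 0.00829 from limma), or more than 2-fold. The other Prickle1 probe sets were dim, at 4.48 and 4.49 against 4.86 and 4.74 for 1444759_at and at 3.70 and 3.62 against 3.97 and 3.77 for 1442172_at. Both were higher on the GFP- arrays without overlap, with differences of 0.32 and 0.20 that did not pass (adjusted p = 0.0900 and 0.281 from limma). Prickle2 had 1 probe set, at 7.38 and 7.40 in GFP+ cells and at 7.79 and 7.81 in GFP- cells. Its difference of 0.41 (standard error 0.07, 95% interval 0.23 to 0.60, adjusted p = 0.0432 from limma) was 1.33-fold, and the call was lost when GFP+ replicate 1 (0.149) or GFP+ replicate 2 (0.0935) was left out.

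Vangl1 and Vangl2 encode membrane proteins that recruit Prickle. Vangl1, by 1427234_at, was at 7.28 and 7.38 in GFP+ cells and at 7.83 and 7.67 in GFP- cells, without overlap. The difference was 0.43 (standard error 0.09, 95% interval 0.18 to 0.67), close to that of Prickle2, but its adjusted p of 0.0691 from limma did not pass. Its less expressed probe set, 1441097_at, overlapped between the groups, with a difference of 0.16. Vangl2, whose loop-tail mutation leaves the mouse neural tube open, gave differences of -0.05, -0.13 and -0.04 at its 3 probe sets. The most expressed of them, 1436118_at, was at 10.57 and 10.62 against 10.54 and 10.55, and its interval ran from -0.24 to 0.14. The other 2 overlapped between the groups.

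Celsr1 and Celsr2 encode the atypical cadherins of the pathway. Celsr1 was at 8.04 and 7.95 in GFP+ cells and at 8.08 and 7.96 in GFP- cells, with overlapping groups and a difference of 0.03 (95% interval -0.20 to 0.25, adjusted p = 0.884 from limma). Celsr2, by 1435336_at, was at 9.40 and 9.35 in GFP+ cells and at 8.94 and 9.03 in GFP- cells. Both GFP- arrays were lower, and the difference of -0.39 (standard error 0.08, 95% interval -0.59 to -0.18) missed the threshold at an adjusted p of 0.0594 from limma. The second Celsr2 probe set, 1422073_a_at, also had lower values on both GFP- arrays, with a difference of -0.22 (adjusted p = 0.204 from limma). Celsr2 1435336_at and Ror2 1457128_at were the 2 probe sets with a negative difference and an unadjusted p under 0.05 from limma.

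The calls depended on single arrays to unequal degrees. Ror1 1429313_at and Prickle1 1452249_at passed when either GFP+ array was left out, with Ror1 at adjusted p = 0.0360 without replicate 1 and 0.0190 without replicate 2, and Prickle1 at 0.0401 and 0.0231. Without GFP- replicate 1 or GFP- replicate 2 all 4 calls were lost, as was every call on the array. There the lone GFP- array was assumed to vary like the GFP+ arrays, and limma called 0 of 45101 probe sets in each case, while 7704 and 7697 of them had an unadjusted p under 0.05, and 6 higher and 2 lower probe sets of the 21 did. The differences themselves stayed near their values, from 1.60 to 1.72 for Ror1 1429313_at and from 1.06 to 1.13 for Prickle1 1452249_at. With the replicate number as a block, none of the 21 probe sets passed limma (lowest adjusted p = 0.0591, for Ror1 1429313_at), while 9 had an unadjusted p under 0.05. The study's methods describe biological duplicates, with aggregates pooled per experiment. Whether equal replicate numbers mark 1 such experiment is not stated there or in the labels.

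**Figure D3:**
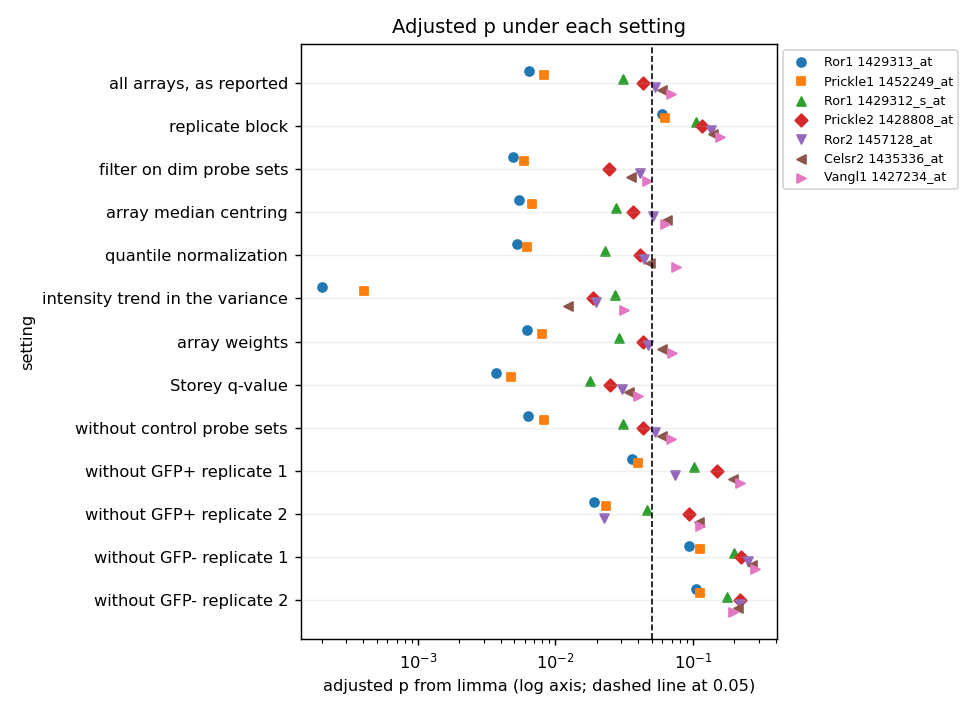
Adjusted p from limma (x axis, log scale, dashed line at 0.05) of 7 probe sets under each setting (y axis). Each marker is 1 probe set, and Ror1 1429313_at and Prickle1 1452249_at stay left of the line except with the replicate block and without a GFP- array, while Ror2 1457128_at, Celsr2 1435336_at and Vangl1 1427234_at lie near it in most settings that use all arrays.

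Among the ligands and the other genes of the pathway, Wnt5b, Fzd3 and Fat3 were lower in GFP- cells and Wnt4 was higher. Of 41 further measured genes of the pathway, 1 was called higher in GFP- cells (2.44%) and 3 were called lower (7.32%), beside 5.4% and 2.63% of all genes. Their median log2 difference was -0.04, and that of all genes was 0.05. Among the non-canonical ligands, Wnt5b was at 8.54 and 8.47 in GFP+ cells and at 7.07 and 6.96 in GFP- cells (difference -1.49, adjusted p = 0.00638 from limma). Its second probe set was also called lower (-1.38). Wnt5a, the ligand best known for the Ror receptors, was at 6.74 and 6.65 against 6.60 and 6.33 (difference -0.23, adjusted p = 0.300 from limma). None of its 4 probe sets was called, their differences ran both ways, from -0.23 to 0.32, and their mean on each array gave -0.00056. Wnt4 was called higher at its more expressed probe set (0.72, adjusted p = 0.0278 from limma), but not without GFP+ replicate 1 (difference 0.63). Its less expressed probe set was not called (0.43, adjusted p = 0.0787 from limma). Wnt4 is listed here with the non-canonical ligands, whereas the study's authors count it among the canonical ones. Wnt11 differed by 0.11 (adjusted p = 0.436 from limma).

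Fzd3, a Frizzled receptor of planar polarity but not the only one, was at 11.84 and 11.81 in GFP+ cells and at 10.71 and 10.72 in GFP- cells (difference -1.11, adjusted p = 0.00767 from limma). Of its 6 probe sets, 4 were called lower and none higher. The other 6 measured core genes were not called, among them Dvl1, a Dishevelled gene, at -0.21 and Ankrd6, the mammalian relative of Diego, at -0.04. Prickle3 and Prickle4 had no probe set annotated to them alone.

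Of 6 measured genes of the Fat and Dachsous system, a second polarity pathway of giant cadherins, Fat3 was called lower, at 7.55 and 7.63 against 6.61 and 6.48 (difference -1.04, adjusted p = 0.0116 from limma). Fat1 differed by 0.27 (adjusted p = 0.143 from limma), and Fjx1, a kinase gene of the system, by 0.30 at its most expressed probe set (adjusted p = 0.0905 from limma). A less expressed probe set of Fjx1 was called higher (0.52, adjusted p = 0.0344 from limma), as was one of Smurf1, a ubiquitin ligase that acts on Prickle (0.54, adjusted p = 0.0274 from limma). A less expressed probe set of Mapk10, a Jnk gene, was called lower (-0.93, adjusted p = 0.0200 from limma). These 3 were named after their values were seen.

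None of the 8 polarity partners was called at its most expressed probe set, with Csnk1d at -0.02 and Csnk1e at -0.25, both casein kinase genes. None of the 4 effectors in cilia was called either, with Intu at -0.06 and Invs at -0.14. The cytoskeletal GTPase genes Rac1 and Cdc42 were not called and differed by -0.06 and -0.04. Kif26a and Kif26b, of which the latter encodes a kinesin that responds to Wnt5a and Ror, differed by -0.10 and 0.15. By limma at an unadjusted p under 0.05, there were 1 higher and 2 lower genes among the partners, 1 and 0 among the effectors in cilia and 0 and 0 for Kif26, where 25.8% of all genes passed in either direction.

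**Figure D4:**
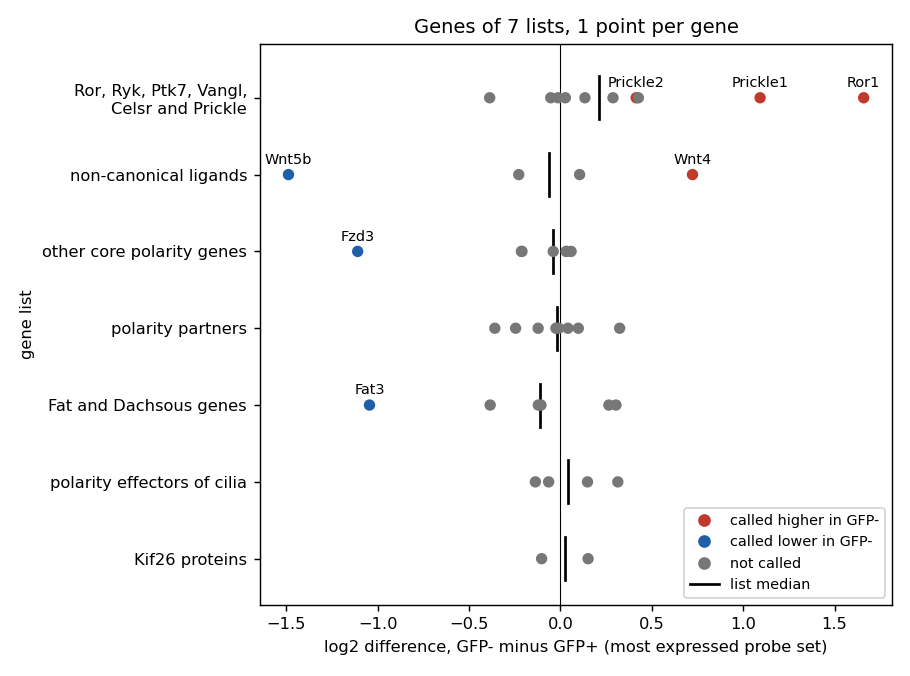
Genes of 7 lists (y axis) are drawn at the log2 difference, GFP- minus GFP+ (x axis), of their most expressed probe set, 1 point per gene. Red points were called higher, blue points lower and grey points not called, and black bars are list medians. The 3 red points of the top list are Ror1, Prickle1 and Prickle2, and the 3 blue points are Wnt5b (-1.49), Fzd3 (-1.11) and Fat3 (-1.04).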

How the data were processed

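Rax::GFP+ and Rax::GFP- cells were measured on 4 Affymetrix Mouse Genome arrays, 2 per group. The deposited log2 values were made by the authors with RMA (background correction, quantile normalization and a summary per probe set), in R 2.13.0 according to the submitters' processing notes. A difference in total RNA cannot be seen in such values. The arrays had medians from 5.84 to 5.89.

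All 45101 probe sets, 64 control probe sets included, entered a fit of both groups by limma 3.58.1 (R 4.3.3), without a filter and with Benjamini-Hochberg adjustment. Residual degrees of freedom were 2 and prior ones 2.52. The fit was tested on simulated data. Of the probe sets, 34958 had 1 gene symbol in the platform annotation, 932 had several and 9211 were unnamed here. All 10 symbols were found in the GRCm38.p6 gene table. Promoter stretches came from a RefSeq table of that build, and no genome sequence was read beyond it. The results of 1 further gene list are not reported here, though its genes count among the 41 further ones.

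The genes, the lists, the naming rule (every probe set of the 10 genes, and of each further list up to 4 called genes and the 2 most expressed others) and the alternatives were chosen with earlier results of these data known. The p-values measure the spread between these arrays, and a shared culture is not stated for equal replicate numbers. The alternatives were a replicate block, a filter on dim probe sets (5 or more on the log2 scale, on 2 or more arrays), median centring, quantile normalization, an intensity trend, array weights, Storey's q-value, no control probe sets, the mean of a gene's probe sets and leaving out each array.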

Additional observations from a re-analysis of the deposited data

How the results depend on the processing

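Under the 8 settings that used all arrays, 145 of 164 values of the 21 probe sets kept their direction and their side of the threshold, 13 gained a call, 4 lost one and 2 changed sign. Whether the replicate numbers pair the arrays was not settled. The labels do not say so, and the differences of replicate 1 minus replicate 2 had a correlation of -0.05 between the groups across all probe sets, but they had the same sign in both groups for 32 of 45 marker genes, among them 5 of 5 rostral markers, and for 10 of the 21 probe sets. With the replicate number as a block, 0 probe sets passed limma, of the 21 and of all 45101, while 9 and 11019 had an unadjusted p under 0.05. The further genes of the pathway had 0 higher and 0 lower calls with the block, and the 10 genes had 0. The lowest adjusted p of the 21 was then 0.0591. The block leaves fewer residual degrees of freedom, and the part of this in the lost calls was not tested.

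Calls toward lower values appeared at 2 probe sets, Ror2 1457128_at and Celsr2 1435336_at, with the filter on dim probe sets, quantile normalization, an intensity trend and Storey's q-value, and at 1, Ror2, with array weights. By gene, 1 of the 10 was then lower with the filter, quantile normalization, the trend and the q-value, and 5 were higher with the trend. With the filter 4 probe sets were higher, but Ror1 1429312_s_at was left out as dim and Vangl1 1427234_at passed (adjusted p = 0.0460). Of the further genes, 2 were higher with the filter, 2 with the q-value, 4 with the trend and 3 with the mean of each gene's probe sets, and 6 were lower with the trend and 5 with the mean. Over all probe sets, the trend called 3230 higher and 3732 lower, the q-value 2907 and 3256, and median centring 1980 and 1612.

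When each array was left out in turn, calls ran from 0 to 3 higher and 0 to 1 lower among the 21 probe sets, from 0 to 2 higher among the 10 genes, and from 0 to 1 higher and 0 to 3 lower among the further genes. Over all probe sets, 478 were higher and 342 lower without GFP+ replicate 1, and 1059 and 1919 without GFP+ replicate 2. Sign changes were seen at values near 0. With median centring Ror2 1423428_at moved to 0.026, Vangl2 1419218_at to 0.0021, Csnk1d to 0.014 and Cdc42 to 0.0032. With the mean of a gene's probe sets Ankrd6 moved to 0.13, Csnk1d to 0.062, Intu to 0.055, Cdc42 to 0.10 and Rac1 to 0.089. With an array left out, values ran from -0.16 to 0.070 for Ror1 1451014_at, -0.39 to 0.36 for Ror2 1423428_at, -0.0076 to 0.32 for Vangl1 1441097_at, -0.11 to 0.040 for Vangl2 1419218_at, -0.031 to 0.085 for Celsr1, -0.10 to 0.024 for Ankrd6 and -0.055 to 0.0053 for Csnk1d. Values near the dim end of the array compress differences, and the files hold no detection calls.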
